A study of Mus musculus with 10 samples.

Results

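The genes described here drive DNA replication and cell division. Their symbols were taken from a list of 40 cell cycle genes, and 39 of them were measured, out of 12394 genes on the arrays. They comprise 16 genes of S phase, 17 genes of mitosis, 2 D cyclins and 4 inhibitors of cyclin-dependent kinases (CDKs). Ccnb1, a mitotic cyclin of the list, had no probe set paired with it alone in the annotation used and was not analysed here. Each gene was read from 1 probe set, the one with the highest mean over the 10 arrays. The list was drawn up by function, with earlier results of these data known. Values are log2 signals, so that a difference of 1 is a doubling.

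A dividing cell first commits to division in G1, when D cyclins with Cdk4 or Cdk6 and then E cyclins with Cdk2 inactivate the retinoblastoma protein and free the E2F factors. E2F factors switch on the genes of S phase, which license replication origins, unwind DNA and supply nucleotides. Genes of mitosis follow in G2, when the MuvB complex with B-Myb and FoxM1 activates promoters that carry a cell cycle homology region (CHR) and CCAAT boxes. In resting cells the same regions hold these genes silent. CDK inhibitors of the Cip/Kip family (p21, p27 and p57) and of the INK4 family oppose the kinases. In the mammary gland most fibroblasts rest, while tumour epithelium divides.

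The arrays held RNA of cells sorted from mammary glands, all on the FVB/N background and with 100 ng of total RNA per array. COF denotes fibroblasts of wild-type control glands (3 arrays). CAF denotes fibroblasts of the tumours (3 arrays), and TEC and CSC are populations sorted from the same kind of tumour (2 arrays each). CSC is taken as cancer stem cells, whereas the labels do not spell out TEC and 1 field reads TEFs there. All tumours had the genotype WAPCre-DNbcatn;HGF, called Wnt-Met by the study, in which the Wap promoter directs Cre to milk-producing epithelium. The genotype names beta-catenin, the effector of Wnt signals, and HGF, the ligand of the receptor Met. The labels give neither ages, gates nor separate mice, so p-values measure only the spread between these samples, which may be technical. The study set CAF against COF, CSC against TEC, and CAF against CSC. The first and last of these share the CAF arrays, and the last shares the CSC arrays with the second.

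Array medians lay between 6.89 and 7.02, and the number of arrays limits the precision of every value. Fibroblast markers were high on the COF and CAF arrays and epithelial markers on the CSC arrays, but markers of other cells were present too. The 16 fibroblast markers had medians of 13.47 to 13.59 in COF, 13.19 to 13.22 in CAF, 8.87 and 11.45 in TEC, and 8.38 and 8.40 in CSC. The 15 epithelial markers had medians of 5.58 to 5.83 in COF, 6.25 to 6.55 in CAF, 8.98 and 9.34 in TEC, and 11.91 and 11.85 in CSC. Leukocyte markers, 12 genes, had medians of 5.22 to 5.94 in COF, 6.17 to 7.27 in CAF, 12.91 and 12.51 in TEC, and 10.34 and 9.63 in CSC. Macrophage markers, 12 genes, had medians of 5.20 to 5.37 in COF and 5.57 to 6.24 in CAF. Their medians were 10.84 and 10.74 in TEC, and 11.76 and 11.57 in CSC. Leukocyte and macrophage markers were thus high on the TEC and CSC arrays. On the CSC arrays the macrophage medians lay close to the epithelial ones. In such bulk samples a lower value can mean fewer dividing cells or less RNA per cell, which cannot be told apart.

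Cell cycle transcripts were lowest in control fibroblasts, intermediate in tumour fibroblasts and highest in both other tumour populations. With each gene set against its own mean over the 10 arrays, the median of the mitosis genes was -1.56, -0.54 and -1.22 on COF replicates 1, 2 and 3. It was -0.11, 0.08 and 0.06 on the CAF arrays, 0.93 and 0.53 on the TEC arrays, and 0.80 and 1.57 on the CSC arrays. The 4 groups did not overlap, except that the ranges of TEC and CSC did. The S phase genes followed a shallower course, with -0.63, -0.37 and -0.65 in COF, -0.30, -0.22 and -0.16 in CAF, 0.84 and 0.52 in TEC, and 0.57 and 0.68 in CSC. The step from COF to CAF was thus small for S phase genes and large for mitosis genes, and the step from CAF to the TEC and CSC arrays was clear in both. These medians are descriptions and were not tested.

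**Figure D1:**
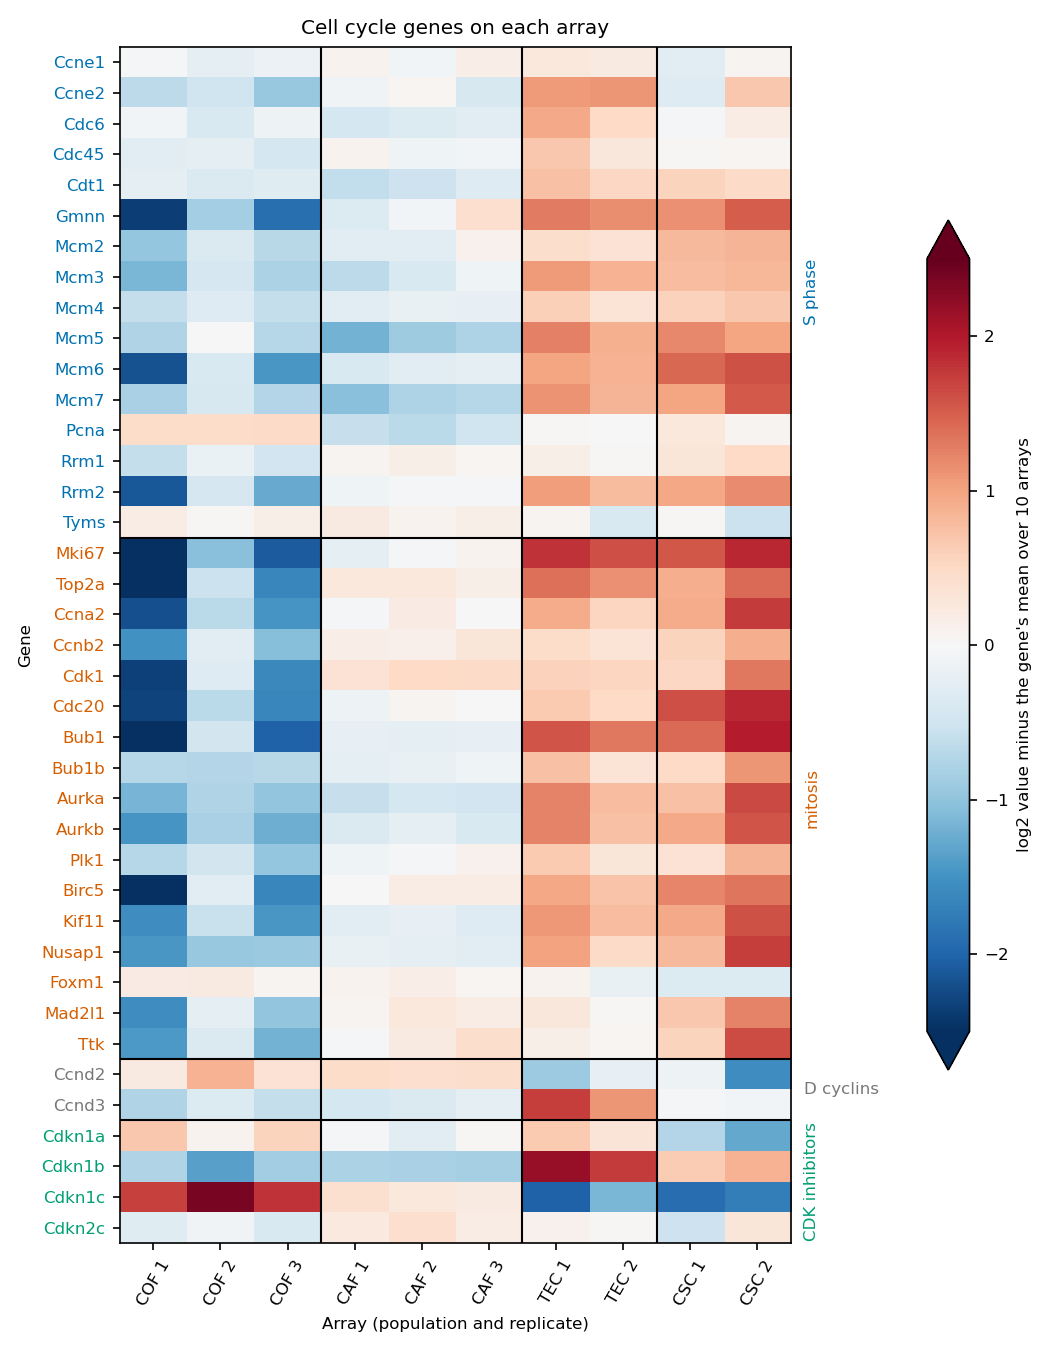
Signal of the 39 genes (rows, grouped by role) on the 10 arrays (columns, grouped by population), as the log2 value minus the gene's mean over all arrays. Blue is below and red above that mean. Most mitosis genes turn from blue in COF through pale in CAF to red in TEC and CSC. Several genes, among them Pcna, Tyms, Foxm1, Ccnd2, Cdkn1a and Cdkn1c, do not follow this course.

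**Figure D2:**
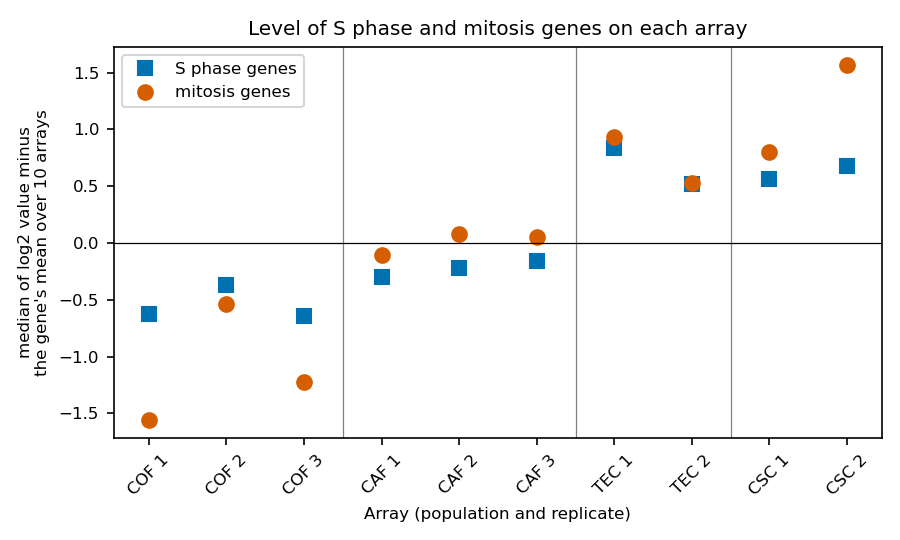
Median over the 16 S phase genes (squares) and the 17 mitosis genes (circles) of the log2 value minus the gene's mean, for each array. The mitosis median spans -1.56 on COF replicate 1 to 1.57 on CSC replicate 2, and the S phase median spans -0.65 to 0.84.

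The control fibroblast arrays differed among themselves in these genes. Over the 17 mitosis genes the median SD was 0.624 between the COF arrays, against 0.090 in CAF, 0.182 in TEC and 0.406 in CSC. Over all genes tested it was 0.111, 0.085, 0.164 and 0.126. COF replicate 1 was the lowest of the 3 COF arrays for 14 of the 17 mitosis genes, and COF replicate 2 the highest for 15. Over all 12394 genes COF replicate 1 was lowest for 4260 and COF replicate 2 highest for 5020. Markers of other cells moved in the same order, with leukocyte medians of 5.22, 5.94 and 5.66 and epithelial medians of 5.58, 5.83 and 5.63 on COF replicates 1, 2 and 3. The leukocyte gene Ptprc (5.19, 6.57 and 5.78) and the epithelial gene Epcam (5.92, 7.22 and 6.49) showed that order too. So did the fibroblast markers, with medians of 13.47, 13.59 and 13.57, and the fibroblast gene Col1a1 (11.54, 12.49 and 12.05). The order was thus not particular to markers of other cells. The 3′ control probe set of Gapdh also had it (11.24, 11.72 and 11.37), but that of beta-actin did not (13.79, 13.90 and 13.73). The part of other cells in the mitosis signal of COF was not tested. In CAF, replicate 3 had a leukocyte median of 7.27 against 6.17 and 6.20, while its mitosis median of 7.32 lay close to the 7.13 and 7.22 of the other arrays.

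The pairs of tumour arrays also differed in a common direction. CSC replicate 2 exceeded CSC replicate 1 for 16 of 17 mitosis genes and 12 of 16 S phase genes. TEC replicate 1 exceeded TEC replicate 2 for all 17 mitosis genes and for 15 of 16 S phase genes. The TEC arrays also differed in fibroblast markers, whose median was 8.87 on replicate 1 and 11.45 on replicate 2. The part of these markers in the difference between the TEC arrays was not tested.

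Promoters of the mitosis genes carried the letters of the CHR more often than those of the S phase genes or of all genes. Windows from 250 bases before to 50 bases after the gene start, from RefSeq on GRCm38.p6, were searched on both strands for CCAAT boxes, CHR words and E2F-type words. A CCAAT box was the word CCAAT. A CHR was TTTGAA or, as its variant, TTTAAA. An E2F-type word was TTGGCGC, the word GCGGGAA, or the word GGCGGGA. A window was held for 31 of the 39 genes, and a gene with several windows counted as holding a word if any of them did. The last words can overlap, which did not change the count of genes. Of 14 mitosis genes with a window, 11 (78.6%) held a CHR word, 11 (78.6%) held CCAAT and 10 (71.4%) held both. Of 13 S phase genes, 5 (38.5%) held a CHR word, 9 (69.2%) held CCAAT and 4 (30.8%) held both. Over the 9888 genes tested that had a window, the shares were 24.5%, 42.3% and 9.93%, and over all 32851 windows they were 27.6%, 37.4% and 10.7%. E2F-type words were in 8 of 13 S phase genes (61.5%) and 5 of 14 mitosis genes (35.7%), against 26.9% of the genes tested and 15.1% of all windows. These are counts of letters in short windows, and no binding was measured.

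Other genes of each kind differed in the CHR in the same way. Of 37 other mitosis genes with a window, 73.0% held a CHR word and 56.8% held both CHR and CCAAT. Of 34 other replication genes, 23.5% held a CHR word. An E2F-type word was in 64.7% of the other replication genes and in 43.2% of the other mitosis genes, both above the 26.9% of the genes tested. With only the bases before the start, a CHR word was in 8 of the 14 mitosis genes (57.1%) and 4 of the 13 S phase genes (30.8%), against 22.5% of the genes tested.

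The 200 bases before the start are shown for 3 mitosis genes that were higher in CAF than in COF (Cdk1, Cdc20 and Mki67), for 2 S phase genes that were higher with them (Mcm6 and Rrm2), and for Pcna, the S phase gene that was lower. Capitals mark CCAAT or its reverse complement ATTGG, the CHR word TTTGAA and the E2F-type word TTGGCGC, and each sequence runs 5′ to 3′ towards the gene. On GRCm38.p6 they lie at chr10:69352913-69353112 (minus strand, Cdk1), chr4:118437344-118437543 (minus, Cdc20), chr7:135716380-135716579 (minus, Mki67), chr1:128359706-128359905 (minus, Mcm6), chr12:24708054-24708253 (plus, Rrm2) and chr2:132253181-132253380 (minus, Pcna). All are the upstream flanks of annotated gene starts. Rrm2 held its CHR word after the start, outside the bases shown. These genes are examples and do not stand for all. Bub1, Mad2l1 and Nusap1 were higher in CAF without a CHR word in their windows. Aurka, Ccne1, Cdc45 and Mcm5 held a CHR word and did not pass.
Cdk1: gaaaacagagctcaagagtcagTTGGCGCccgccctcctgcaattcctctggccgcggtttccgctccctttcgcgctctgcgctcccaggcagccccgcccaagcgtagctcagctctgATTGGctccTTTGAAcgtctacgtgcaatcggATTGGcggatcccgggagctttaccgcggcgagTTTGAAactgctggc
Cdc20: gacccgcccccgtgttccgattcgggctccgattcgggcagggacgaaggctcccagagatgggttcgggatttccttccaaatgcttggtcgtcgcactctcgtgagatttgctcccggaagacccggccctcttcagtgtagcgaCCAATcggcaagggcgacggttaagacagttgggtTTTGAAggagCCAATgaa
Mki67: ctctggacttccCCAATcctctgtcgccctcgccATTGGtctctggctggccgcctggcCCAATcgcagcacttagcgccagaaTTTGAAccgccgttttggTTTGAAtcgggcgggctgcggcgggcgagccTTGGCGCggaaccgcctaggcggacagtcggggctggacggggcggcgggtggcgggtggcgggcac
Mcm6: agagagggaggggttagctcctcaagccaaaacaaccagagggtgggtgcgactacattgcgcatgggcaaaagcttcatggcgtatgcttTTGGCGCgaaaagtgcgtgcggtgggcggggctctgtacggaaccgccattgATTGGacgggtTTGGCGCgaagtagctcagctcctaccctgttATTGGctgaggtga
Rrm2: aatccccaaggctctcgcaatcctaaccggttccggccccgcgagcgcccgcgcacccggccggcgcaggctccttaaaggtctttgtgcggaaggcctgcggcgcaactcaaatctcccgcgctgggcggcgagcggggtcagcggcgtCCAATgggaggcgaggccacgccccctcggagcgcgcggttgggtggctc
Pcna: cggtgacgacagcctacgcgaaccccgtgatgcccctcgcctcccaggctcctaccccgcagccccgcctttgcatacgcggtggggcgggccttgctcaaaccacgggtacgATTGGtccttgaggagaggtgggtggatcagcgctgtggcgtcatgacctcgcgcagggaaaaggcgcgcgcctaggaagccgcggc
Cdk1, Cdc20 and Mki67 each had CHR and CCAAT letters in these bases, and Cdk1 and Mki67 held the E2F-type word too. Mcm6 had that word and CCAAT on the reverse strand. Rrm2 and Pcna had CCAAT alone, which in Pcna was on the reverse strand.

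In the comparison of CAF with COF, which sets tumour fibroblasts beside those of control glands, the former carried more transcript of nearly the whole set of mitosis genes, while most S phase genes did not pass the test and Pcna was lower. Of the 39 genes 20 were higher and 2 lower at an adjusted p under 0.05 (limma), where 18.1% of all genes tested were higher and 16.7% lower (34.8% in either direction). By role, 15 of 17 mitosis genes were higher and none lower, with a median difference of 1.15, and 5 of 16 S phase genes were higher and 1 lower, with a median of 0.29. The median over all genes was 0.02. All 3 CAF arrays lay above all 3 COF arrays for 16 of 17 mitosis genes and 7 of 16 S phase genes, against 30.1% of all genes. All CAF arrays lay below all COF arrays for 2 S phase genes and 2 CDK inhibitor genes, against 26.5% of all genes.

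Mki67, which encodes a surface coat of mitotic chromosomes and serves as the usual marker of dividing cells, had log2 values of 4.71, 7.17 and 6.14 on COF replicates 1, 2 and 3. On CAF replicates 1, 2 and 3 it had 7.99, 8.16 and 8.30. Every CAF array was thus above the highest COF array, and the COF arrays were far apart. The difference was 2.14 ± 0.49 (SE, n = 3 and 3), a 4.42-fold higher signal, with adjusted p = 0.00871. Top2a, the topoisomerase that untangles sister chromatids, read 4.78, 7.57 and 6.47 in COF and 8.37, 8.38 and 8.25 in CAF. Its difference was 2.06 ± 0.56 (adjusted p = 0.0187), again without overlap. The second Top2a probe set, which was dim, differed by 0.20.

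Cdk1, the kinase that starts mitosis, and its cyclins were higher together. Cdk1 was at 5.59, 7.59 and 6.31 on the COF arrays and at 8.28, 8.41 and 8.39 on the CAF arrays, a difference of 1.86 ± 0.43 (adjusted p = 0.0088). The CAF arrays lay close together above all COF arrays, which were spread widely. Ccna2, the cyclin of S phase and G2, was at 5.56, 7.10 and 6.29 in COF and 7.74, 7.97 and 7.76 in CAF, and differed by 1.51 (adjusted p = 0.00997). Ccnb2, a mitotic cyclin, was at 6.47, 7.70 and 6.91 in COF and 8.14, 8.10 and 8.27 in CAF, and differed by 1.15 (adjusted p = 0.00879). In both cyclin genes the groups did not overlap.

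All 5 genes of the spindle checkpoint were higher in CAF, with differences of 0.54 to 1.67. Cdc20, the activator of the anaphase-promoting complex and target of that checkpoint, was at 6.23, 7.88 and 6.92 in COF and 8.41, 8.62 and 8.56 in CAF, a difference of 1.52 ± 0.33 (adjusted p = 0.00701). Its other probe sets differed by 0.93 and 0.13. The checkpoint kinase gene Bub1 had 3.44, 6.15 and 4.58 in COF against 6.39, 6.38 and 6.41 in CAF, a difference of 1.67 ± 0.54 (adjusted p = 0.0394), and its dim second probe set differed by -0.13. The Bub1 call was lost in 11 of 19 other settings, among them the mean of both probe sets (0.77, adjusted p = 0.0769). The groups did not overlap in either gene, and COF replicate 2 came closest to CAF in both. Ttk, the kinase that recruits the checkpoint proteins, differed by 1.21. Mad2l1, which holds Cdc20 inactive, differed by 1.09. Bub1b, the checkpoint subunit BubR1, differed by 0.54, and its COF arrays lay closer together (SD 0.026, n = 3) than for any other mitosis gene.

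Among the kinases and passenger proteins of the spindle, Birc5 (survivin, 1.67), Aurkb (its partner kinase, 0.85) and Plk1 (0.70) were higher. Aurka, the kinase of the spindle poles, did not pass (0.46 ± 0.23, adjusted p = 0.15), although its CAF arrays lay above its COF arrays. The spindle motor gene Kif11 (0.92) and the spindle-associated gene Nusap1 (0.89) were higher by the probe sets used, while their other probe sets differed by 0.40 and 0.06 and by -0.06. Foxm1, the transcription factor of G2 genes, read 7.25, 7.28 and 7.13 in COF and 7.13, 7.22 and 7.11 in CAF, a difference of -0.07 with a 95% confidence interval from -0.28 to 0.15. The groups overlapped, and the other 3 Foxm1 probe sets differed by -0.10 to 0.03.

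**Figure D3:**
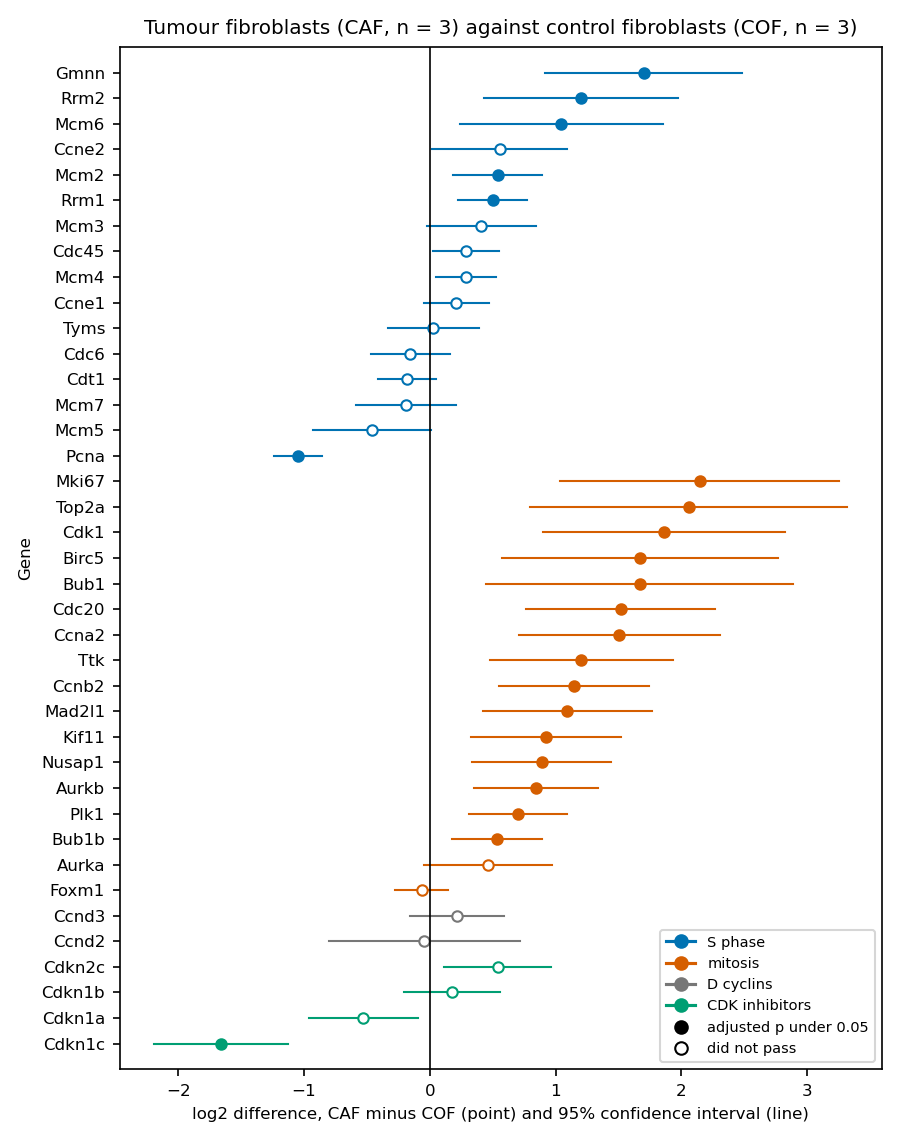
Difference of CAF minus COF on the log2 scale for each of the 39 genes (points) with its 95% confidence interval (lines), coloured by role; filled points passed at an adjusted p under 0.05. Mitosis genes lie to the right of 0 except Foxm1, S phase genes lie on both sides, and Pcna and Cdkn1c are the 2 filled points to the left.

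Among the S phase genes those of geminin and ribonucleotide reductase were higher in CAF. Gmnn, which encodes the inhibitor of re-licensing geminin, was at 4.86, 6.37 and 5.33 in COF and 6.88, 7.14 and 7.64 in CAF, a difference of 1.70 ± 0.35 (adjusted p = 0.00499) without overlap. The subunits of ribonucleotide reductase, which makes deoxynucleotides, were both higher, by 1.20 for Rrm2 (adjusted p = 0.023) and 0.50 for Rrm1 (adjusted p = 0.0113). Rrm2 was at 6.98, 8.68 and 7.83 in COF and 8.99, 9.07 and 9.05 in CAF. Its COF arrays were spread over a wider range than the difference between the groups, yet all lay below CAF.

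Of the 6 subunits of the MCM helicase, which unwinds DNA at the replication fork, 2 were higher in CAF and none lower. Mcm2 differed by 0.54 (adjusted p = 0.0254). Mcm6 was at 5.71, 7.50 and 6.42 in COF and 7.50, 7.62 and 7.65 in CAF, a difference of 1.05 ± 0.36 (adjusted p = 0.0489), and COF replicate 2 reached the lowest CAF array. It was past the threshold in only 4 of 19 other settings. Mcm3 (0.41), Mcm4 (0.29), Mcm5 (-0.46) and Mcm7 (-0.19) did not pass, and all 3 Mcm5 values of CAF (5.64, 5.94 and 6.05) lay below those of COF (6.08, 6.81 and 6.12). The licensing factor genes Cdc6 (-0.16) and Cdt1 (-0.18), the helicase cofactor Cdc45 (0.29) and the E cyclins Ccne1 (0.21) and Ccne2 (0.55) did not pass either.

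Pcna, the sliding clamp of DNA polymerase, went the other way with little spread. It read 12.22, 12.22 and 12.24 in COF and 11.18, 11.09 and 11.26 in CAF, and stood at 11.80 and 11.78 on the TEC arrays and at 12.02 and 11.84 on the CSC arrays. Every CAF array was below every other array. The difference of CAF from COF was -1.05 ± 0.084 (adjusted p = 5.33e-05), a 2.07-fold lower signal. Tyms, the enzyme that makes thymidylate, was dim on its 3 probe sets, and the one used had 3.55 to 4.31 on the arrays, below the lower quartile of every array (5.05 to 5.26), so that its differences say little.

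The D cyclins, which drive cells through G1, and most CDK inhibitors did not pass between CAF and COF. Ccnd2 differed by -0.04 and Ccnd3 by 0.22. Cdkn1c, which encodes p57, was at 10.22, 10.90 and 10.33 in COF and 8.92, 8.79 and 8.75 in CAF, and at 6.50 and 7.39 in TEC and 6.61 and 6.79 in CSC. The groups did not overlap, and CAF lay between COF and the other tumour populations. The difference was -1.66 ± 0.23 (adjusted p = 0.000815), a 3.16-fold lower signal. Cdkn1a, which encodes p21, was at 12.42, 11.83 and 12.29 in COF and 11.70, 11.49 and 11.77 in CAF, and the difference of -0.53 ± 0.19 did not pass (adjusted p = 0.0624) although the groups did not overlap. It passed in 6 of the other settings. Cdkn2c, an INK4 inhibitor, differed by 0.54 and narrowly did not pass (adjusted p = 0.0515), although all its CAF arrays lay above COF. It too passed in 6 of the other settings. Cdkn1b, which encodes p27, differed by 0.18.

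Part of the leukocyte, macrophage and epithelial markers rose in the same comparison. Of the leukocyte markers 8 of 12 were higher in CAF and none lower, of the macrophage markers 7 of 12, of the lymphocyte markers 2 of 10, and of the epithelial markers 9 of 15 with 1 lower. None of 16 fibroblast markers passed, and 2 of 10 endothelial markers were lower. Over all genes tested 18.1% were higher and 16.7% lower. The share of lymphocyte markers higher and that of endothelial markers lower lay close to these. Array signals have no true 0, so that the absence of a marker could not be read. The part of these cells in the higher mitosis signal was not tested.

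How many of the 39 genes were called higher depended on single arrays. It fell from 20 to 11 without COF replicate 1, to 9 without COF replicate 3, and to 12, 9 and 10 without CAF replicates 1, 2 and 3, and was 21 without COF replicate 2. Without COF replicate 1 the difference also fell below its reported size by over 1.5 times for Top2a (1.31), Bub1 (1.03), Birc5 (1.08), Mcm6 (0.63) and Rrm2 (0.78). Whichever of the 10 arrays was left out, 9 genes passed in the same direction (Gmnn, Pcna, Rrm1, Mki67, Ccna2, Ccnb2, Cdk1, Cdc20 and Cdkn1c). Averaging the closest pair of arrays in each fibroblast group, which was decided after the data were seen, left 2 genes higher (Gmnn and Mki67) and 2 lower (Pcna and Cdkn1c).

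Other genes of the cell cycle, from lists that do not hold the 39, split along the same line. Of 44 other mitosis genes 30 were higher in CAF and none lower (18.1% and 16.7% of all genes tested), with a median difference of 0.84. Kif18a (0.80 ± 0.11), Cep55 (2.22 ± 0.37) and the condensin gene Smc4 (1.14 ± 0.19) had the smallest adjusted p. Kif18a is a motor that aligns chromosomes, and Cep55 completes the separation of daughter cells. Kif18a was below the lower quartile on the COF and CAF arrays. Cep55 was below it on the COF arrays (3.35, 5.07 and 3.81), so both differences may be understated. Of 41 other replication genes 12 were higher and 4 lower, with a median of 0.26. Dut (0.98), Gins4 (0.80) and Orc3 (0.58) were higher, and Slbp (-0.82), Orc6 (-0.47) and Pola1 (-0.45) lower. Dut clears dUTP, Gins4 and Orc proteins serve replication origins, Slbp stabilises histone mRNA and Pola1 is a polymerase subunit.

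The INK4 inhibitor genes Cdkn2a and Cdkn2b were higher in CAF. Cdkn2a, which encodes the INK4 inhibitor p16 and p19Arf from overlapping frames, read 5.18, 5.46 and 5.24 in COF and 9.47, 9.38 and 9.42 in CAF, against 5.42 and 6.57 in TEC and 5.40 and 5.15 in CSC. The CAF arrays stood far above all others. The difference of CAF from COF was 4.13 ± 0.24 (adjusted p = 1.63e-05), a 17.5-fold higher signal, and that from CSC was 4.15 (adjusted p = 2.04e-06). The COF values lay near the lower quartile of their arrays, so the difference may be understated, and the annotation does not say which transcript the probe set reads. Its neighbour Cdkn2b, which encodes the INK4 inhibitor p15, was 2.35 ± 0.19 higher in CAF than in COF. The INK4 gene Cdkn2d did not pass (0.23), nor, narrowly, did Cdkn2c (0.54, adjusted p = 0.0515). Ccng1, the p53 target cyclin G1, had the smallest adjusted p of the list (1.32 ± 0.07, adjusted p = 1.22e-05). Ccnd1 (1.93), Cdk4 (0.69) and Cdk6 (0.52) were higher, while Cdk2 (0.25) did not pass. The retinoblastoma gene Rb1 did not pass (-0.12), E2f1 was higher (0.35) and the repressor gene E2f6 was lower (-0.98). In all 9 of 25 measured G1 genes were higher and 2 lower, against 18.1% and 16.7% of all genes tested. The other lower gene was Cdc25a (-0.36), a phosphatase that activates CDKs. Myc, a driver of growth, differed by -0.999 without passing (adjusted p = 0.0918).

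Targets of p53 and checkpoint genes moved both ways, with 7 of 22 higher in CAF and 7 lower, against 18.1% and 16.7% of all genes tested. Pmaip1 (2.33 ± 0.27) and Perp (2.08 ± 0.25), effectors of cell death, and Trp53inp1 (1.63 ± 0.15) were higher. Gadd45b (-1.55 ± 0.12), the death effector gene Bbc3 (-1.27 ± 0.14), Sesn1 (-0.78) and Mdm2 (-0.34), the ubiquitin ligase of p53, were lower. Perp, which is also a gene of epithelial junctions, was at 4.87 to 5.10 in COF, 6.71 to 7.35 in CAF, 9.58 and 10.57 in TEC, and 11.31 and 11.02 in CSC.

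**Figure D4:**
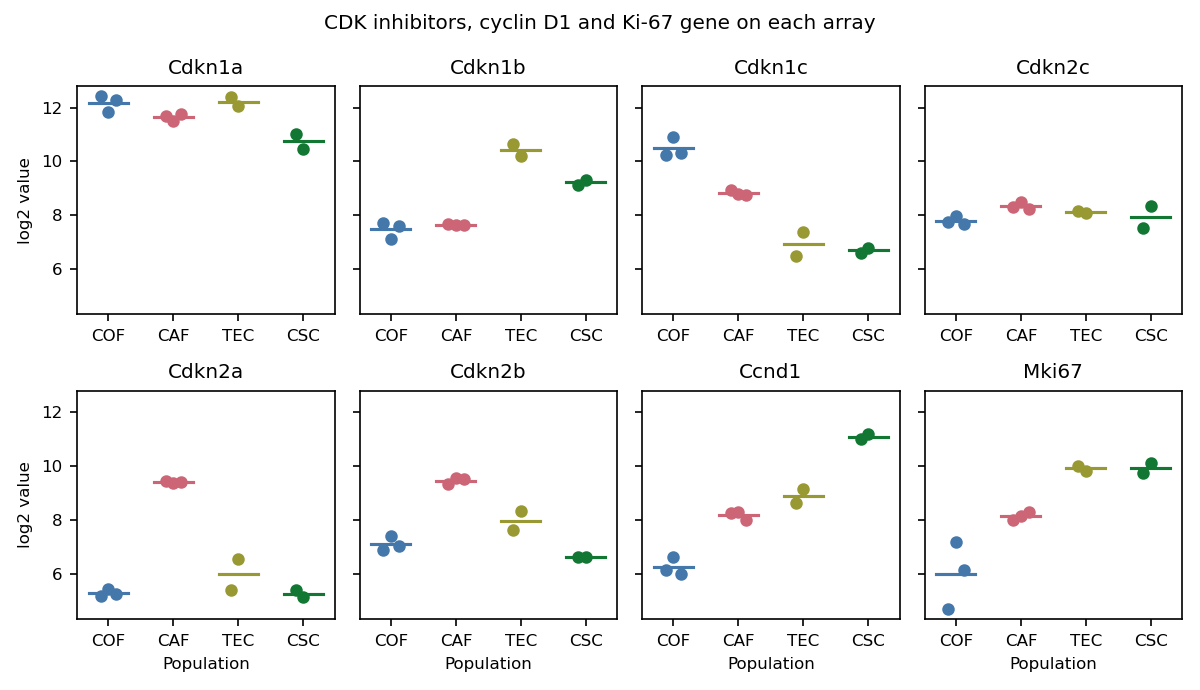
Log2 value of 6 CDK inhibitor genes, Ccnd1 and Mki67 on each array (points) with the mean of each population (lines; COF and CAF n = 3, TEC and CSC n = 2). Cdkn2a and Cdkn2b stand high in CAF, Cdkn1c falls from COF through CAF to TEC and CSC, and Mki67 takes the reverse order.

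The comparison of CSC with TEC sets both sorted tumour populations against each other. The levels of S phase and mitosis genes were close, and the genes that did pass were mainly CDK inhibitors and genes of G1 and S phase that were lower in CSC. Of the 39 genes 1 was higher in CSC and 6 were lower, where 26.6% of all genes tested were higher and 20.1% lower (46.7% in either direction). The median difference was 0.05 for S phase genes and 0.33 for mitosis genes, against 0.00 for all genes. CSC lay above TEC without overlap for 10 of the 39 genes, against 36.4% of all genes, and below for 9, against 32.2%. For 32 genes the test was not passed. The intervals rest on 2 arrays a group and on a spread pooled over all 10 arrays, COF and CAF included. Mki67, for instance, was at 10.02 and 9.83 in TEC and 9.77 and 10.12 in CSC. Its difference was 0.02 with a 95% confidence interval from -1.34 to 1.38. Its SD was 0.14 in TEC and 0.25 in CSC but 1.24 in COF, which enters the pooled spread. The arrays of TEC and CSC overlapped for Mki67, as they did for Cdk1 (0.37), Top2a (-0.10), Bub1 (0.26) and Plk1 (0.13).

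The genes of the CDK inhibitors p21 and p27 were lower in CSC. Cdkn1a was at 12.39 and 12.06 in TEC and 11.02 and 10.47 in CSC, a difference of -1.48 ± 0.24 (adjusted p = 0.000847), and its second probe set differed by -1.50. Cdkn1b was at 10.64 and 10.21 in TEC and 9.11 and 9.33 in CSC, a difference of -1.20 ± 0.21 (adjusted p = 0.00126), and by -1.42 on its second probe set. Every CSC array was below every TEC array in both genes. Ccnd3, the D cyclin of blood cells among others, was at 10.18 and 9.55 in TEC and 8.40 and 8.39 in CSC, 2.77-fold lower in CSC (-1.47 ± 0.20, adjusted p = 0.000385). The fibroblast arrays had 7.69 to 8.22, so that TEC alone stood high. Leukocyte markers were lower in CSC for 12 of 12 genes and lymphocyte markers for 8 of 10. Macrophage markers went both ways, with 4 of 12 higher in CSC and 4 lower. Epithelial markers were higher for 14 of 15, and fibroblast markers lower for 7 of 16. Over all genes tested 26.6% were higher and 20.1% lower. The part of leukocytes in the lower signal of Ccnd3, Cdkn1a and Cdkn1b was not tested.

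The other calls were S phase genes lower in CSC and the mitosis gene Cdc20. Cdc6, which loads the MCM helicase, was at 7.43 and 7.002 in TEC and 6.45 and 6.69 in CSC (-0.65, adjusted p = 0.0115). Ccne2, an E cyclin, was at 6.82 and 6.85 in TEC and 5.43 and 6.43 in CSC (-0.90, adjusted p = 0.0304), and Cdc45 differed by -0.43 (adjusted p = 0.0339). The CSC arrays were below the TEC arrays in all of them, but the CSC replicates lay far apart in Ccne2. Cdc20 was at 9.19 and 9.05 in TEC and 10.16 and 10.42 in CSC, a difference of 1.17 ± 0.41 (adjusted p = 0.0404), and its other probe sets differed by 0.86 and 0.59. The MCM subunits did not pass, with differences of -0.16 to 0.58.

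Only Ccnd3, Cdkn1a and Cdkn1b passed whichever of the 10 arrays was left out. The number higher was 4 without COF replicate 2 or CSC replicate 1, 2 without COF replicate 1, and 0 without COF replicate 3, any CAF array, either TEC array or CSC replicate 2. Cdc20 did not pass without any of these 7 arrays or CSC replicate 1 (adjusted p of 0.0591 to 0.165). The number lower was 3 without TEC replicate 1, and no S phase gene was lower without TEC replicate 1 or CSC replicate 1.

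Among the other cell cycle genes, those of replication were called higher in CSC more often than all genes (26.6%), and those of mitosis and G1 in shares close to it. Of 41 other replication genes 18 were higher in CSC and none lower (20.1% of all genes were lower), with a median difference of 0.42, and Ung (1.22), which removes uracil from DNA, and the maintenance methylase gene Dnmt1 (0.87) had the smallest adjusted p. Of 44 other mitosis genes 11 were higher and 4 lower. Ckap2 (1.28) and Kif18a (0.77) were higher, and Kif23 (-0.92) and Cks2 (-0.76) were lower. Of 25 G1 genes 8 were higher and 3 lower. Ccnd1 was at 8.63 and 9.14 in TEC and 11.01 and 11.19 in CSC (2.22 ± 0.23, adjusted p = 8.13e-05), the reverse of Ccnd3. The INK4 gene Cdkn2d (-1.98 ± 0.17) and Cdkn2b (-1.34 ± 0.23) were lower in CSC, and Rb1 was higher (1.07 ± 0.20). Of 22 p53 targets and checkpoint genes 8 were higher and 9 lower. Chek2, a DNA damage kinase (1.73), and Ei24 (0.87) were higher, and the death receptor gene Fas (-3.21) and Trp53inp1 (-2.01) were lower.

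The comparison of CAF with CSC sets tumour fibroblasts beside the population taken as cancer stem cells. Replication and mitosis genes were lower in the fibroblasts, most evenly in the MCM helicase. Of the 39 genes 22 were lower in CAF and 4 higher, where 33.1% of all genes tested were lower and 33.4% higher (66.5% in either direction). By role, 11 of 16 S phase genes were lower and none higher, with a median difference of -0.91, and 10 of 17 mitosis genes were lower and 1 higher, with a median of -1.14. The median over all genes was 0.01. All CAF arrays lay below both CSC arrays for 12 of 16 S phase genes and 16 of 17 mitosis genes, against 40.4% of all genes. Over the 39 genes CAF lay above CSC without overlap for 5, against 41.6% of all genes.

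All 6 MCM subunit genes were lower in CAF than in CSC, with differences of -0.84 (Mcm4) to -2.10 (Mcm7) and adjusted p of at most 0.00335. Mcm7 was at 8.19, 8.47 and 8.51 in CAF and 10.22 and 10.76 in CSC (-2.10 ± 0.19, adjusted p = 1.68e-05). Mcm5 was at 5.64, 5.94 and 6.05 in CAF and 8.03 and 7.81 in CSC (-2.04 ± 0.23, adjusted p = 5.68e-05). No CAF array came near a CSC array in either gene, and the TEC arrays (10.37 and 10.08 for Mcm7, 8.09 and 7.73 for Mcm5) lay with CSC. Further probe sets of Mcm2, Mcm4, Mcm6 and Mcm7 differed by -0.79 to -1.82, and those of Mcm3 by -0.93 to 0.39. Cdt1 (-1.001), which loads the helicase with Cdc6, Gmnn (-1.32), Rrm2 (-1.15), Pcna (-0.75) and Cdc6 (-0.41) were also lower. Ccne1, Ccne2, Cdc45, Rrm1 and Tyms did not pass.

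Among the mitosis genes the Aurora kinases had the smallest adjusted p. Aurka was at 5.90, 6.04 and 5.99 in CAF and 7.21 and 8.13 in CSC (-1.70 ± 0.25, adjusted p = 0.000304). Aurkb was at 5.78, 5.94 and 5.77 in CAF and 7.09 and 7.72 in CSC (-1.58 ± 0.24, adjusted p = 0.000396). All CAF arrays were below CSC in both, and CSC replicate 2 was the higher of its pair. Mki67 (-1.79 ± 0.55, adjusted p = 0.0169), Bub1 (-1.90) and Cdc20 (-1.76) were lower too. Cdk1 was at 8.28, 8.41 and 8.39 in CAF and 8.43 and 9.24 in CSC, a difference of -0.48 with a 95% confidence interval from -1.55 to 0.60 (adjusted p = 0.394). The lower CSC array thus stood close to CAF for Cdk1. Top2a (-0.93), Birc5 (-1.14), Ttk (-0.90), Mad2l1 (-0.78) and Ccnb2 (-0.53) did not pass, although all their CAF arrays lay below both CSC arrays. In a limma fit of only the CAF and CSC arrays each of these genes passed, with adjusted p from 0.000125 (Birc5) to 0.0453 (Ttk).

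Foxm1 was the mitosis gene called higher in CAF (0.44 ± 0.11, adjusted p = 0.00495), at 7.13, 7.22 and 7.11 in CAF and 6.72 and 6.71 in CSC. Its other probe sets differed by 0.04, -0.57 and 0.60, and the mean of all of them did not pass (0.13, adjusted p = 0.205), so no direction can be given for this gene. The inhibitor genes took opposite sides. Cdkn1c was 2.12 ± 0.26 higher in CAF (adjusted p = 9.86e-05) and Cdkn1a 0.91 ± 0.22 higher (adjusted p = 0.00469). Cdkn1b differed by -1.57 on its brighter probe set (7.67, 7.65 and 7.63 in CAF against 9.11 and 9.33 in CSC), while its dim second probe set differed by -0.01. Ccnd2 was higher in CAF (1.28 ± 0.38, adjusted p = 0.0137), with 10.49, 10.45 and 10.46 in CAF and 9.89 and 8.48 in CSC. The CSC arrays lay apart for it, and all 6 further Ccnd2 probe sets differed by 0.78 to 1.33.

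Without CSC replicate 2 the number lower in CAF fell from 22 to 15, and Cdc6, Gmnn, Rrm2, Mki67, Ccna2, Bub1 and Plk1 no longer passed, nor did Ccnd2 and Cdkn1a. All 6 MCM genes, both Aurora kinase genes, Cdt1, Pcna, Cdc20, Bub1b, Kif11, Nusap1, Foxm1, Cdkn1b and Cdkn1c passed whichever of the 10 arrays was left out. Fibroblast markers were higher in CAF for 16 of 16 genes and epithelial, leukocyte and macrophage markers lower for 14 of 15, 12 of 12 and 12 of 12. Of all genes tested 33.4% were higher and 33.1% lower. The part of leukocytes in the higher cell cycle signal of CSC was not tested.

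In the further lists 35 of 44 other mitosis genes and 24 of 41 other replication genes were lower in CAF than in CSC, and 1 and 2 were higher. Over all genes tested 33.1% were lower and 33.4% higher. Ncaph (-2.09), a condensin subunit, Nek2 (-1.83), a centrosome kinase, Ung (-1.62) and Dnmt1 (-1.62) were lower, and Kif2c (0.27), Orc2 (0.59) and Orc3 (0.41) were higher. Among 25 G1 genes 8 were higher and 9 lower, close to the shares of all genes. E2f8, a late E2F repressor, was at 4.62, 4.45 and 4.57 in CAF and 7.97 and 7.85 in CSC (-3.37 ± 0.16, adjusted p = 2.78e-07; its CAF values were below the lower quartile, so this may be understated), and Ccnd1 (-2.91) and Rb1 (-2.82) were lower as well. Of 22 p53 targets and checkpoint genes 6 were higher in CAF and 4 lower, both smaller shares than over all genes. Zmat3 (1.48) and Mdm2 (1.21) were among the higher genes, and Perp (-4.07) and Chek2 (-2.01) among the lower.

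Most of the 39 genes varied together over the arrays. Pearson's r with the mean of the mitosis genes, the gene itself left out, was 0.904 to 0.996 for 16 of 17 mitosis genes over the 10 arrays, and the exception was Foxm1 (-0.72). That value is from the brightest of 4 Foxm1 probe sets, whose differences between CAF and CSC took both signs. Among S phase genes r was 0.991 for Rrm2, 0.983 for Gmnn, 0.981 for Mcm6 and 0.961 for Mcm2, but 0.718 for Mcm5, 0.348 for Ccne1, -0.325 for Pcna and -0.639 for the dim Tyms. Cdkn1c had -0.890. These arrays fall into 4 populations, so r is a description of their order. The genes outside the list most like the mitosis mean were Kif22 (0.992), Mrpl43, Cep55, Cenpe, Prc1, Spc25, Smc2, Pclaf, Ube2c and Csn2 (0.983), of which 7 stand in the list of other mitosis genes. Csn2, the beta-casein of milk, was at 5.84, 9.95 and 8.47 on COF replicates 1, 2 and 3, at 11.72 to 11.95 in CAF, 13.94 and 14.05 in TEC and 14.62 and 14.68 in CSC. A milk protein transcript thus followed the order of the mitosis genes, within COF as well as between the populations, and the part of cells or RNA carrying it in their signal was not tested.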

How the data were processed

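The data are 10 Affymetrix mouse arrays of 1 colour. The deposited values are log2 signals made by the authors with RMA, per the submitters' processing notes, whose version and settings are not given in the sources used here. They were used as deposited, so that any background correction and summary of probes by RMA, which can compress differences of dim genes, stand in every value.

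Of 22690 probe sets 20393 were paired with 1 gene symbol in the platform annotation, 691 with several and 1606 with none. Those with 1 symbol were used, with the brightest probe set for each gene. Of the 39 genes 19 had 1 probe set and 20 had several, and 6 of the probe sets used end in _x_at or _s_at and may read related transcripts. The 12394 genes (12370 with a RefSeq identifier) were fitted in R 4.3.3 with limma 3.58.1 (lmFit, eBayes), in a model of the 4 populations that pools their spread over the 10 arrays. All tests were two-sided. Adjusted p-values follow Benjamini and Hochberg over the 12394 genes in each comparison, and below 0.05 counted as passed. Errors are moderated standard errors with 95% confidence intervals, and SDs are between arrays of a population. The spread of COF exceeded that of the other populations in mitosis genes, and the pooled fit does not model this. Fits were tested on simulated data.

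The genes and the further lists (153 other cell cycle genes, 132 measured, and 78 markers, 75 measured) were chosen with earlier results of these data known. All 39 genes could be named. Of each further list up to 3 genes in each direction with the smallest adjusted p between CAF and COF were named, and up to 2 in the other comparisons, together with a set of G1 genes and markers and the 10 genes most like the mean of the mitosis genes. Promoter windows came from RefSeq on GRCm38.p6, and 8 genes had no window (Aurkb, Ccna2, Ccnd2, Ccne2, Cdkn1c, Foxm1, Gmnn and Mcm4).

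Other settings used only the populations compared, the replicate number as a block, a mean-variance trend with a robust prior, no genes in the dimmest 30%, the mean of all probe sets, no _x_at or _s_at probe sets, arrays centred on their median, a second quantile normalization and a threshold of 0.01. Each array was left out in turn, and for promoters only the bases before the start were searched. Replicates were compared, and no pair of arrays held identical values.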

Additional observations from a re-analysis of the deposited data

How the results depend on the processing

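No gene changed direction in a called difference under any setting. Between CAF and COF the number of the 39 genes called higher was 20 as reported, 6 at an adjusted p under 0.01, 9 to 21 with 1 array left out, and 2 with the closest fibroblast arrays averaged, a setting chosen after seeing the data. Of the 22 genes called there, 4 (Gmnn, Pcna, Mki67 and Cdkn1c) passed in every setting that kept the threshold of 0.05. Between CSC and TEC the number higher was 1 as reported, 2 with the replicate block, 0 with arrays centred on their median, 0 at an adjusted p under 0.01, and 0 to 4 with 1 array left out. The number lower was 6 as reported, 3 with only the arrays of these populations, 8 with arrays centred on their median or with the repeated quantile normalization (Ccne1 and Foxm1 in addition), 3 at an adjusted p under 0.01, and 3 to 7 with 1 array left out. The S phase median between CSC and TEC turned from 0.05 to -0.0721 without TEC replicate 2, within a range of -0.0721 to 0.16 over the arrays left out, so it has no direction. With only the CAF and CSC arrays fitted, 7 further genes were lower in CAF than in CSC and no call was lost. They were Birc5, Ccnb2, Ccnd3, Mad2l1, Rrm1, Top2a and Ttk. Their differences were the same in that fit, and only the estimated spread and the adjustment over all genes changed. Birc5, for instance, had an SD of 1.24 in COF, which that fit leaves out, 0.10 in CAF and 0.08 in CSC. Between CAF and CSC the number lower was 15 to 27 with 1 array left out, and the S phase median was -0.70 with the mean of all probe sets. With the same setting the S phase level on CSC replicate 1 was 0.40 in place of 0.57. The cause of the other changes in this paragraph was not tested. Where a population is left with 1 array, that array is assumed to vary like the others.

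The deviations of same-numbered arrays from their group means had correlations of 0.127, 0.006 and -0.082 between CAF and COF. Deviations within a small group are tied to each other, so these values cannot show whether replicate numbers pair the arrays. With the replicate block 19 genes were higher and 3 lower between CAF and COF, and 21 were lower and 5 higher between CAF and CSC. Tyms and the second probe sets of Top2a, Bub1 and Nusap1 were dim, and 10, 2 and 6 of the 39 genes lay below the lower quartile of COF replicates 1, 2 and 3, so differences from COF may be understated for them.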
